A study of Mus musculus with 6 samples.

Results

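This account describes all 23681 peaks of N6-methyladenosine (m6A) that the authors compared between ClpX cKO and WT male germ cells, out of 47808 peaks in the tables of both knockouts of the study. No peak was chosen by its value: the set is the whole of the authors' deposited table for ClpX cKO against WT, which names 13085 genes. Behind it stand 4 libraries, 1 for each group: WT_ip, WT_input, ClpX_cKO_ip and ClpX_cKO_input. The cells are labelled as male germ cells and as spermatocytes of mice at postnatal day 35. The knockout was made with Stra8-Cre, a recombinase expressed from spermatogonia about to enter meiosis, so Leydig, Sertoli and other somatic cells keep ClpX. The labels give the controls as WT and do not say whether they carry the floxed allele or Cre, nor how many animals stand behind a library.

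m6A is a methyl mark on adenosines of RNA, laid down mainly within GGAC and like sequences by a writer complex around Mettl3 and Mettl14, removed by demethylases and bound by reader proteins that affect splicing, translation and decay. In the male germ line the mark, its writers and its readers are needed for meiosis and for the making of spermatids. ClpX is an unfoldase of the mitochondrial matrix that feeds proteins to the protease ClpP and also acts alone. In m6A-seq an antibody captures methylated RNA fragments (the IP library), and a region where the IP exceeds the input RNA is a peak. The fold enrichment of a peak is IP over input, given once for all libraries of the table. The log2 fold change is the difference of a peak between the genotypes, and its direction, ClpX cKO over WT, rests only on how the table is named: if the ratio ran the other way, every "higher" below would be "lower".

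Sequences with a motif of the kind the writers use can be shown where a peak covers the first bases of a gene, since sequence was at hand for gene starts. The following stretches lie on the transcript strand within the first 50 bases of RefSeq genes (GRCm38), inside peaks called different between the genotypes, with the motif GGAC in capitals. They were taken from a set of 26 higher and 3 lower peaks. Each of these lies on a named gene, covers the motif and shares no base with another peak, but the set need not hold every such peak. The first 5 are the higher ones of smallest adjusted p in this set, and the last 3 are its lower ones.
Fam221b: attggccctGGACctctcttct
Tsc22d1: aatggcgaaGGACtgaaggggt
Tssk2: tgggaatgaGGACaatgcctgc
Mns1: cggttgccgGGACacagcttaa
Tekt4: ccttgcttgGGACagagtgacc
Tulp4: tgttcctagGGACacagggcc
Iqub: tgcttccgaGGACtgg
Ankar: gaaggttcaGGACagtcgagaa
Tssk2, a kinase of late spermatids, carries the motif 30 bases after its start base, at chr16:17898658-17898679 on the plus strand. Its peak had a log2 fold change of 0.73, as listed in the authors' deposited table. Tekt4 codes for a tektin, a filament protein of the sperm tail, and the stretch shown lies at chr17:25471610-25471631 on the plus strand. The authors' deposited table gives its peak a log2 fold change of 0.66. Mns1, which is needed for the assembly of the sperm tail, is shown at chr9:72438542-72438563 on the plus strand. Its log2 fold change was 1.2 in the authors' deposited table. Under the lower peaks, the stretch of Iqub lies at chr6:24515018-24515033 on the minus strand, and the authors' deposited table gives its peak a log2 fold change of -0.97.

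The motif GGAC, searched on the transcript strand only, stood in the first 50 bases of 6186 of 32817 RefSeq starts (18.8%). Among the 1006 peaks that cover at least 40 of those bases, 215 (21.4%) had it. It was present in 34 of 167 peaks called higher (20.4%), in 4 of 57 called lower (7.02%) and in 177 of 782 not called (22.6%). Lower peaks at gene starts were few and more enriched, with a median fold enrichment of 12 against 4.08 for the higher ones. A match describes these letters only and does not show a methylated site.

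Peaks also overlapped 21 miRNA hairpins by at least 1 base, 19 of them within the transcript of another gene. The peak held the whole hairpin for 14, of which 2 lay in peaks called higher and 1 in a peak called lower. Mature sequences of these 3 hairpins, from RefSeq, are given since called peaks contain them. All but miR-7217-3p are shown, with the seed (bases 2 to 8) in capitals.
mmu-miR-7225-5p: aCGUAGACuguguagaagcc
mmu-miR-7225-3p: cUUCUAGAcagccucugcagca
mmu-miR-7217-5p: aACUUGUAucuugugagacagaagg
mmu-miR-1896: cUCUCUGAuggugggugaggag
Their seeds differ from each other. The hairpin of miR-7225 lies in a peak on Pde4dip, a protein of the centrosome and Golgi, at a log2 fold change of 0.75, by the authors' deposited table. That of miR-7217 lies in a peak on the predicted gene Gm49794, listed at 1.99 in the authors' deposited table. The miR-1896 hairpin lies in a peak on 4930470G03Rik, listed at -2.71 in the authors' deposited table, and this peak shares bases with another. The values are those of peaks on the host transcripts, and the miRNAs themselves were not measured.

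Most of the differences called by the authors ran towards more m6A enrichment in the knockout. At an adjusted p under 0.05, 4752 of 23681 peaks were called (20.1%), of which 3567 were higher (15.1%) and 1185 lower (5.0%) in ClpX cKO. Higher peaks made up 75.06% of the calls (exact binomial 95% interval 73.81 to 76.29, counting error only). That interval takes peaks as independent, though peaks of a gene share its input RNA, and it holds no spread between animals. The median log2 fold change of all peaks was 0.24, with quartiles of -0.56 and 1.0. Taking each gene by its peak of smallest p for the difference, 2845 of 13085 genes were higher (21.7%) and 992 lower (7.58%), with a median of 0.36. These calls compare single libraries: no replicate spread exists, so no p-value here speaks of the genotypes. With an error no smaller than that of peaks of like support, 2547 peaks were higher and 1025 lower. With the same error and the median of all peaks subtracted, 1677 were higher and 1793 lower. Subtracting the median itself sets as many peaks above 0 as below, so near-equal counts there are no measure of the excess, and no source used here gives how the libraries were scaled.

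The direction of a difference followed how strongly a peak was enriched. Peaks were split into 10 equal groups by fold enrichment. In the group of lowest enrichment (median 2.2), 42.5% were higher and 1.22% lower, and the median log2 fold change was 0.92. The share of higher peaks then fell from each group to the next, to 15.5% in the fifth (median fold enrichment 7.69) and 6.25% in the seventh (12.5). In the group of highest enrichment (median 31.6), 2.91% were higher and 13.6% lower, and the median log2 fold change was -0.32. Lower calls first outnumbered higher ones in the eighth group, where 128 peaks were higher and 139 lower. Below the median fold enrichment 91.63% of the calls were higher, and at or above it 42.73%. Fold enrichment and log2 fold change come from the same libraries, and the part of this dependence in the pattern was not tested. Gene lists are therefore also described by their difference from peaks of like enrichment, which is the log2 fold change less the median of the same group of peaks; over all genes its median was 0.08. The median log2 fold change over all genes, 0.36 by the peak of smallest p, was 0.22 with the mean over a gene's peaks and 0.09 with its most enriched peak. Of all called genes 74.1% were higher. Differences between lists were not tested.

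**Figure D1:**
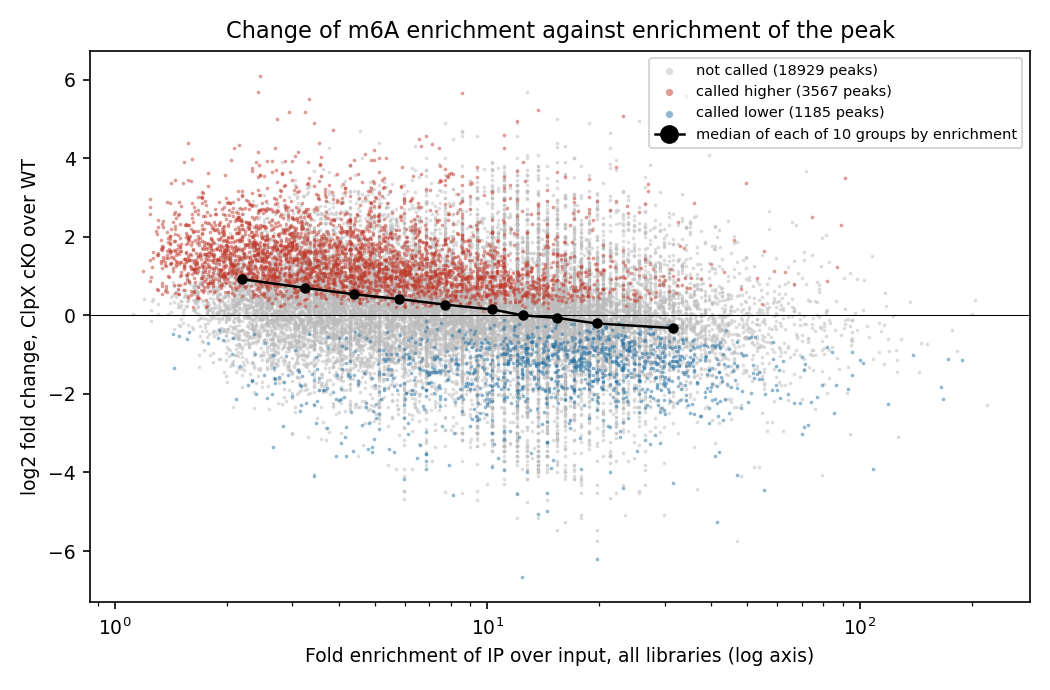
Each point is 1 of 23681 peaks, with its fold enrichment (IP over input, log axis) against its log2 fold change (ClpX cKO over WT); red marks the 3567 peaks called higher, blue the 1185 called lower, and black dots the median of each of 10 equal groups by fold enrichment. The median falls from 0.92 in the least enriched group to -0.32 at the most enriched.

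**Figure D2:**
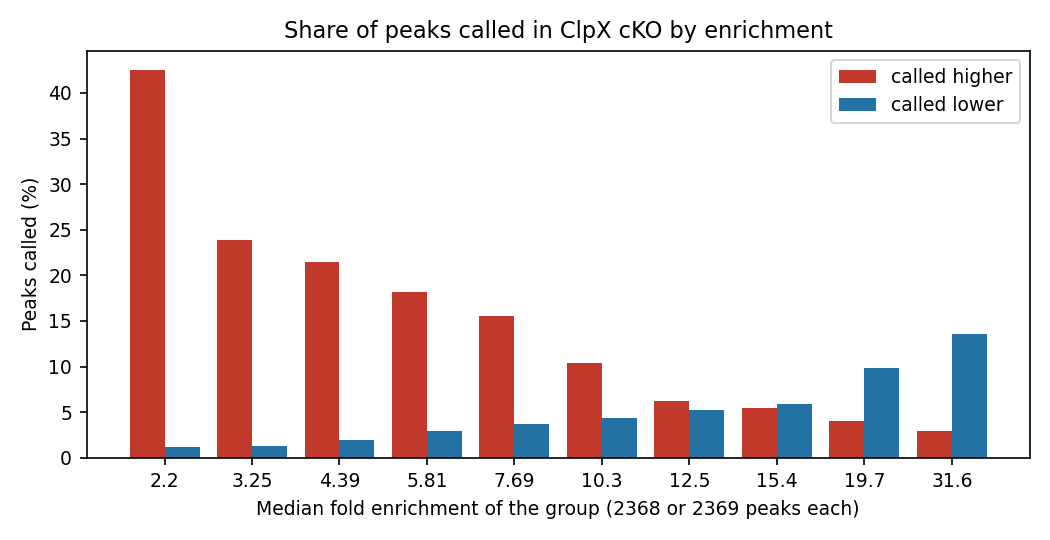
Bars give the percentage of peaks called higher (red) and lower (blue) in each of 10 equal groups of peaks by fold enrichment, labelled with the median fold enrichment of the group. Higher peaks fall from 42.5% to 2.91% and lower peaks rise from 1.22% to 13.6%.

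Length and place of the peaks went with the number of calls. In the longest of 5 equal groups of peaks 19.5% were higher and 13.9% lower, against 8.11% and 0.51% in the shortest. Peaks joined over 4 or more exon blocks (414 peaks) were higher in 27.5% and lower in 7.97%. The 17174 peaks of 1 block were higher in 13.6% and lower in 3.7%. Both groups had a median log2 fold change of 0.26. Of all peaks 15.1% were higher and 5.0% lower. Of the peaks set within RefSeq gene spans, 1853 reached within 100 bases of the gene end only, and 24.2% of these were higher and 5.88% lower. The 1678 peaks within 100 bases of the gene start only were higher in 16.3% and lower in 4.89%. The 18379 peaks between gave 14.3% and 5.04%. At gene starts the median fold enrichment was low, 5.61 against 9.4 for the peaks between, and the median difference from peaks of like enrichment was -0.14.

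The medians of the autosomes lay between 0.02 and 0.40. Chromosome 11 had the highest median log2 fold change of the autosomes, 0.40, with 20.8% of 1780 peaks higher, and chromosome 17 followed at 0.35 with 18.9% of 1183 peaks higher. Chromosome 18 had the lowest at 0.02, and chromosome 13 had the largest share of lower peaks, 7.71% of 960. The X chromosome, whose genes are silenced during pachytene and partly return in spermatids, held 667 peaks with a median of 0.22, of which 8.25% were higher and 3.45% lower. X peaks were more enriched than those of any autosome (median fold enrichment 12), and their median difference from peaks of like enrichment was 0.17. The 34 peaks of the Y chromosome had a median of -0.79, yet only 1 was called, and it was higher.

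**Figure D3:**
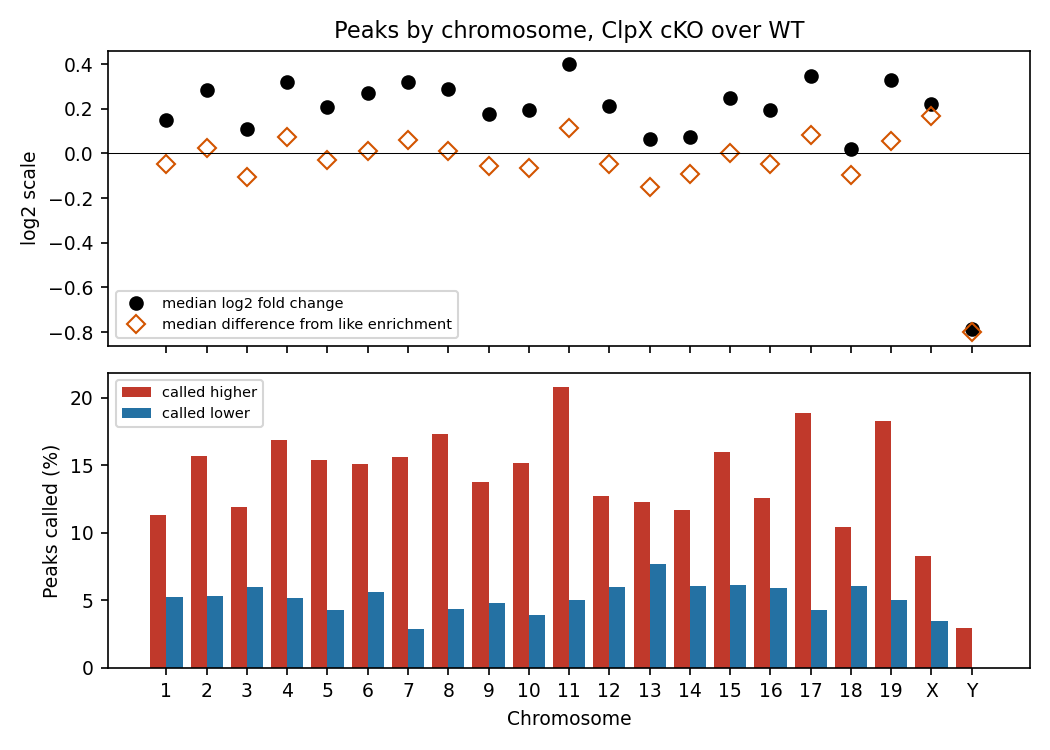
The upper panel plots for each nuclear chromosome the median log2 fold change of its peaks (dots) and the median difference from peaks of like enrichment (diamonds), both on the log2 scale; the lower panel gives the percentage of peaks called higher and lower. Autosomes lie between 0.02 and 0.40, and the Y chromosome, with 34 peaks, lies at -0.79.

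All 8 peaks on mitochondrially encoded transcripts were called higher, at a median log2 fold change of 2.29. These transcripts code for subunits of the respiratory chain and are made inside the organelle in which ClpX works. The most enriched was the peak of mt-Co1, a subunit of cytochrome c oxidase, with a fold enrichment of 91.4 and a log2 fold change of 3.51, as given by the authors' deposited table. The peak of mt-Nd4, a subunit of NADH dehydrogenase, had a fold enrichment of 88.9 and a log2 fold change of 2.29, as listed in the authors' deposited table. Both lie in the most enriched of the 10 groups, in which 2.91% of peaks were higher. Fold enrichment comes from the same libraries as the change, so that share is no independent measure. The median fold enrichment of all 8 mitochondrial peaks was 3.94. In the ClpP cKO comparison, made against the same WT libraries, the largest fold enrichment of a mitochondrial peak was only 3.31. The values of 91.4 and 88.9 therefore hold for the ClpX cKO comparison alone, and the cause of this gap was not tested. The peaks of mt-Nd1 and mt-Nd2 stood at 2.15 and 1.77 in the authors' deposited table, and that of mt-Cytb, the cytochrome b of the respiratory chain, at 2.39. Of the peaks on mt-Nd5 listed in the authors' deposited table, one stood at 1.48 and the other at 2.74. The second of these overlaps the peak of mt-Nd6 on the opposite strand, listed at 2.28 in the authors' deposited table, and no source used here says whether reads were assigned by strand. The levels of these transcripts in the libraries were not analysed here.

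The targeted gene had a peak in the table. Clpx had a fold enrichment of 6.62 and a log2 fold change of 0.55, by the authors' deposited table (authors' adjusted p 0.61), and Clpp 3.23 and 1.7 (authors' adjusted p 0.069). Neither was called. The peak of Clpx lies at chr9:65329882-65330240, no source used here names the exon removed by Cre, and a log2 fold change of enrichment does not report the level of the transcript, so these values do not check the labels. Of 14 genes of ClpXP and other mitochondrial proteases and chaperones, of the matrix, the inner membrane and the intermembrane space, 12 had a peak. Of these 3 were higher (25%, beside 21.7% of all genes) and 0 lower. Their log2 fold changes had a median of 0.31, with a median difference from peaks of like enrichment of 0.05. The higher ones were Clpb, a disaggregase of the intermembrane space (2.8), Hspa9, the HSP70 of the matrix (2.57), and Htra2, a serine protease of the intermembrane space (1.6), as listed in the authors' deposited table. Lonp1, the other large ATP-dependent protease of the matrix, had 1.74 in the authors' deposited table and was not called.

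The strongest calls, by smallest adjusted p and leaving out mitochondrial and predicted genes and peaks that share bases, were taken as the first 10 in each direction. The higher peaks given here had fold enrichments between 1.35 and 3.82 in the authors' deposited table, and adjusted p-values from 1e-289 (Hist1h1a) to 7.9e-94 (Polr2a). Among them were Hist1h1a and Hist1h1t, linker histones of which the second is specific to the testis, with log2 fold changes of 1.12 and 1.14, as given by the authors' deposited table. Prm2, a protamine that packs sperm DNA, stood at 1.11 in the authors' deposited table, and Ybx2, a germ-cell protein that stores mRNA, at 1.67. Tubb4b, a beta tubulin, had 1.64 and Reep6, which shapes endoplasmic reticulum membranes, 1.63, in the authors' deposited table. Crat, which moves acetyl groups onto carnitine in mitochondria, had 1.34 in the authors' deposited table, Mea1 1.48, and Polr2a, the largest subunit of RNA polymerase II, 2.38.

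The lower peaks by the same rule that are given here had fold enrichments between 2.53 and 53.2 in the authors' deposited table, and adjusted p-values from 1e-100 (Fhl4) to 1.3e-11 (Pramel1). Fhl4, a LIM-domain protein of the testis, had a fold enrichment of 15.9 and a log2 fold change of -0.48, as listed in the authors' deposited table. Gk2, a glycerol kinase of the testis, had -0.56 at a fold enrichment of 12.9, and Hspa5, the HSP70 of the endoplasmic reticulum, -0.79 at 18.3, in the authors' deposited table. Ldhc, the lactate dehydrogenase of meiotic cells and sperm, stood at -1.04 and Crisp2, a protein of sperm acrosome and tail, at -0.62 in the authors' deposited table. Slc5a3, a myo-inositol transporter, had -1.49 on the most enriched of these peaks, with a fold enrichment of 53.2 in the authors' deposited table. Lower peaks lay also on Arl4a (-0.58), Hist1h4k (-0.71) and Pramel1 (-1.09), as listed in the authors' deposited table.

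The ClpP cKO comparison was made against the same WT libraries, so the values of both knockouts are not independent. At overlapping peaks the authors' deposited tables list Fhl4 at -0.48 in ClpX cKO and -0.75 in ClpP cKO, Ldhc at -1.04 and -1.1, and Hspa5 at -0.79 and -0.74. Among the higher peaks they list Tubb4b at 1.64 in ClpX cKO and 0.11 in ClpP cKO, Crat at 1.34 and -0.41, Prm2 at 1.11 and -0.07, and Hist1h1a at 1.12 and -0.04. For mt-Nd4 they list 2.29 and 0.84. These are some of the strongest calls and not all of them, so they do not give the share of changes common to both knockouts. Over all peaks the median log2 fold change was 0.24 in ClpX cKO and -0.03 in ClpP cKO. Mitochondrially encoded transcripts held 7 peaks in the ClpP cKO comparison. Higher calls fell on 6 of these 7 peaks (85.7%), and 1 was called lower. Their median was 0.79 in ClpP cKO, beside 2.29 for the 8 peaks in ClpX cKO. The difference between the knockouts was not tested.

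The largest called changes on peaks with a fold enrichment at or above the median of 8.9 were on other genes. Zc3h6, which codes for a zinc finger protein, had a log2 fold change of 5.59, by the authors' deposited table, Vsir, an immune checkpoint receptor, 5.23, and Cbln1, a synaptic organiser, 5.07. Crebl2 (4.6), Fscn2 (4.27), an actin-bundling protein, and Nid1 (3.9), a basement membrane protein, completed the 6 in the authors' deposited table. The largest falls were on Cstdc1, which codes for a cystatin-like protein (-6.2), Srms, a tyrosine kinase (-5.27), and Shq1, an assembly factor of small nucleolar ribonucleoproteins (-4.98), in the authors' deposited table. Csnk1a1, a casein kinase, had -4.51, Rasgef1b -4.44 and Tmtc2 -4.4 in the authors' deposited table. Adjusted p-values of these 12 peaks, as the authors give them, ran from 2.1e-07 (Csnk1a1) to 0.049 (Fscn2), all larger than those of the 10 peaks of smallest p in either direction.

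Of the proteins that write m6A, 10 of 12 had a listed peak, with 2 higher (20%) and 3 lower (30%). Their median log2 fold change was -0.10, which turns to 0.12 when a gene takes its most enriched peak, and their median difference from like enrichment was -0.22. Cbll1, the E3 ligase Hakai of the writer complex, was higher at 1.83 in the authors' deposited table, on a peak that shares bases with another. Rbm15, an adaptor, was counted as higher at 0.39 and had another peak called lower at -1.31, in the authors' deposited table. Lower were Wtap, which anchors the methyltransferases (-2.08), Zc3h13, a scaffold (-1.36), and Virma (-0.85), in the authors' deposited table. Mettl14, the partner of the catalytic Mettl3, had 0.85 on a peak at its gene start in the authors' deposited table and was not called. Of the erasers, Alkbh5 was higher at 1.49 in the authors' deposited table (authors' adjusted p 2.3e-09), while Fto had -0.24 and was not called. Members of the writers and readers beyond 4 per list were named after their values were seen.

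Of 15 readers and partners of readers 13 had a peak, and 3 were higher (23.1%) and 4 lower (30.8%). Their median of -0.16 turns to 0.01 when a gene takes its mean or its most enriched peak. Their median difference from like enrichment was -0.14. The 3 higher ones were Rbm46, a germ-cell RNA-binding protein (1.54), Prrc2a (1.34) and Hnrnpc (1.04), in the authors' deposited table. Lower were the nuclear reader Ythdc1 (-1.11), the cytoplasmic readers Ythdf3 (-0.54) and Ythdf2 (-0.29), and Meioc, the partner of Ythdc2 in meiotic entry (-0.97), in the authors' deposited table. The authors' deposited table also holds a further called peak on Meioc, which went the other way (0.40). Ythdf1 had -0.32 in the authors' deposited table and was not called (authors' adjusted p 0.095). Among the genes of writers, erasers and readers together 6 were higher and 7 lower. The shares given for writers and readers stand beside 21.7% higher and 7.58% lower of all genes, and rest on few genes.

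The mTORC1 kinase complex integrates amino acids, energy and growth signals, and the title of the study names it. Of 50 genes of the complex and its regulators 40 had a peak, and 12 were higher (30%) and 3 lower (7.5%), beside 21.7% and 7.58% of all genes. Their median log2 fold change was 1.05, and their median difference from peaks of like enrichment 0.58. The median fell to 0.44 with the mean over a gene's peaks and to 0.36 with its most enriched peak. The complex itself was not called: Mtor had 0.07, Rptor -1.14 and Mlst8 -0.59 in the authors' deposited table. Calls fell on its regulators. Tsc2, the GTPase-activating protein that restrains mTORC1, was higher at 2.98 in the authors' deposited table, and its partner Tsc1 had 1.12 and was not called. The energy sensor AMPK was higher in 3 subunits, Prkaa1 at 1.29, Prkab1 at 1.56 and Prkab2 at 1.76, as was its activating kinase Stk11 at 1.2, in the authors' deposited table. Upstream kinases Pdpk1 and Akt2 were higher at 1.21 and 1.5 in the authors' deposited table. On the amino acid branch, Lamtor1 of the lysosomal Ragulator was higher at 1.32, Wdr24 of GATOR2 at 2.0, Nprl3 of GATOR1 at 1.78 and Fnip2, a folliculin partner, at 2.21 in the authors' deposited table. The Rag GTPases Rraga, Rragb, Rragc and Rragd, with 0.15, 0.41, 0.37 and -2.49 in the authors' deposited table, were not called. The stress-induced inhibitors went both ways: Sesn2 was higher at 0.76, and Sesn3 (-1.26) and Ddit4l (-2.1) were lower, in the authors' deposited table. Wdr59, another GATOR2 subunit, was lower at -0.84 in the authors' deposited table, on a peak that shares bases with another.

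Downstream of mTORC1, 5 of 13 genes were higher (38.5%) and 0 lower, with a median of 0.72. The median was 0.12 with the most enriched peak and 0.05 as difference from peaks of like enrichment. The higher genes were Ulk1, the kinase that starts autophagy (1.79), Atf4, the transcription factor of amino acid stress (1.65), Eif4b (1.21), Larp1 (0.74) and the cap-binding Eif4e (0.41), in the authors' deposited table. The repressors Eif4ebp1 and Eif4ebp2 had 0.79 and -0.91 in the authors' deposited table and were not called. Core autophagy genes gave 12 higher (37.5%) and 2 lower (6.25%) of 32. Their median was 0.76, with a median difference from like enrichment of 0.12, and it was 0.002 when a gene takes its most enriched peak. Atg9a, a lipid scramblase (1.7), the receptor Nbr1 (1.67), the receptor Sqstm1 (1.56) and Atg2a, a lipid transfer protein (1.45), had the smallest adjusted p-values in the authors' deposited table. The peaks of Atg9a and Sqstm1 share bases with another peak.

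Spermatid markers and lists of the haploid phase came next. Of 17 spermatid markers with a peak 13 were higher (76.5%) and 0 lower, beside 21.7% and 7.58% of all genes, with a median log2 fold change of 0.76 and a median difference from peaks of like enrichment of 0.19. The nuclear condensation list had 8 higher (61.5%) and 0 lower of 13, with a median of 0.94 and a median difference from like enrichment of 0.07. Prm1 stood at 0.53 and Tnp2, a transition protein, at 0.94 in the authors' deposited table, and Tnp1 at 0.62. The sperm tail list had 14 higher (53.8%) and 0 lower of 26, with a median of 0.74 and a difference from like enrichment of 0.26. Its smallest adjusted p-values were those of Smcp of the mitochondrial sheath (1.11), Tekt1, a tektin (2.5), Ift140 of intraflagellar transport (1.13) and Odf2 of the outer dense fibres (1.62), in the authors' deposited table. Transcription of the haploid programme gave 7 higher (43.8%) and 1 lower of 16, with a median of 0.69 and a difference from like enrichment of 0.19. Tbp, the TATA-binding protein, had 2.77, Gtf2a1l, a germ-cell TFIIA subunit, 1.19, and Kif17, a kinesin that moves a CREM coactivator, 1.71, while Fhl4 was lower, in the authors' deposited table. Acrosome genes gave 5 higher (25%) and 2 lower (10%) of 20, with a median of 0.17 that turns to -0.02 as difference from like enrichment and to -0.07 with the median of all peaks subtracted. Acr, the acrosin protease, stood at 1.56 and Vps54, a vesicle tether needed for acrosome formation, at -1.62 in the authors' deposited table.

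Among meiotic genes the shares varied from list to list, beside 21.7% higher and 7.58% lower of all genes. Of 11 genes of the synaptonemal complex and axis with a peak, 4 were higher (36.4%) and 0 lower. Syce2 (2.32), Syce3 (2.2) and Syce1 (1.82), of the central element that joins paired chromosomes, and Sycp1 (0.84), of the transverse filament, are listed so in the authors' deposited table. The list's median of 0.69 turns to -0.13 as difference from peaks of like enrichment, and these peaks had a median fold enrichment of 2.75. Meiotic recombination gave 5 higher (19.2%) and 4 lower (15.4%) of 26, with a median of 0.26 that turns to -0.03 by the same measure. Mdc1, an adaptor at DNA breaks, had 1.5, Rpa1, a single-strand binding protein, 1.11, and H2afx, the histone marked at breaks, 0.59, in the authors' deposited table. Among the meiotic division genes 10 were higher (33.3%) and 1 lower of 30, with a median of 0.45, a difference from like enrichment of 0.006, and a median that turns to -0.06 when a gene takes its most enriched peak. Fzr1, an activator of the anaphase-promoting complex (2.24), Incenp of the chromosomal passenger complex (2.31), Aurka, a spindle kinase (1.26), and the chaperone Hspa2 (0.997) were higher in the authors' deposited table. In the piRNA pathway, which silences transposons, 7 of 15 were higher (46.7%) and 1 lower, with a median of 0.49 and a difference from like enrichment of 0.09. Tdrd7 stood at 1.56, Piwil2 at 1.33, Pld6 at 0.64 and Tdrd6 at 0.34 in the authors' deposited table.

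The labels call the cells spermatocytes, and the peaks held transcripts of other stages and cell types as well. Shares of markers called stand here beside 21.7% higher and 7.58% lower of all genes. Spermatocyte markers had a peak in 15 of 21 genes, with 3 higher and 3 lower (20% each). Their median of -0.10 turns to 0.08 when a gene takes its mean, and their median difference from like enrichment was -0.49. Sycp3, Hormad1, Meiob, Ccna1, Spag6 and Scml2 had no listed peak, which says nothing of their expression. Markers of somatic cells other than Sertoli cells had a peak in 17 of 28, with 6 higher (35.3%) and 0 lower. Their median was 1.81 and their median difference from like enrichment 1.27, the largest of the marker lists. The Leydig cell genes Insl3 (2.01), Cyp17a1 (2.11) and Hsd3b6 (2.07), the macrophage complement genes C1qb (1.8) and C1qc (3.5), and the collagen gene Col1a1 (1.81) were the higher ones in the authors' deposited table; those beyond 4 were named after their values were seen. No listed peak was found for others, among them Cyp11a1, Acta2, Pecam1, Ptprc and Adgre1. Sertoli markers had a peak in 15 of 20, with 2 higher (13.3%) and 3 lower (20%). Higher were Clu (1.24) and Vim (1.87), and lower were Sox9 (-2.55), Inhbb (-1.19) and Ctsl (-0.995), in the authors' deposited table. The median of the list, 0.19, turns to -0.51 as difference from like enrichment and to -0.05 with the median of all peaks subtracted. Spermatogonia markers gave 4 higher (33.3%) and 1 lower (8.33%) of 12, with a median of 0.99 and a difference from like enrichment of 0.42. Dmrt1 at 1.91, Stra8 at 1.04, Zbtb16 at 0.94 and Kit at 1.29 were the higher ones, and Etv5, the lower one, stood at -1.69, by the authors' deposited table. Fewer cells of a type and less of an RNA per cell cannot be told apart in such bulk samples. Levels of these markers per library were not analysed here, and the part of the cells' makeup in any result was not tested.

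Genes for mitochondrial proteins encoded in the nucleus are set here beside the 21.7% higher and 7.58% lower of all genes. Subunits of NADH dehydrogenase gave 6 higher (46.2%) and 0 lower of 13, with a median of 1.54 and a median difference from like enrichment of 0.77. Ndufa13 (2.89), Ndufs5 (2.52), Ndufa12 (1.69) and Ndufb10 (1.54) were higher in the authors' deposited table. Subunits of the other complexes gave 6 higher (37.5%) and 0 lower of 16, with a median of 0.44 that turns to -0.17 by that difference. Among them Uqcrq stood at 2.02 and Sdhd at 1.85 in the authors' deposited table. Mitochondrial ribosomal proteins gave 23 higher (37.1%) and 2 lower of 62, with a median of 0.68 and a difference from like enrichment of 0.18. Mrpl54 (1.89) and Mrpl4 (2.76) had the smallest adjusted p-values of these in the authors' deposited table. Protein import gave 8 higher (42.1%) and 2 lower of 19, with a median of 0.87 and a difference from like enrichment of 0.30. The Slc25 carriers of the inner membrane gave 3 higher (9.68%) and 0 lower of 31, with a median of 0.36 and a difference from like enrichment of 0.08. Tomm22, a receptor of the outer membrane, had 1.48, Timm8a2, an intermembrane chaperone, 1.89, and Timm13 1.55 in the authors' deposited table. The list for mitochondrial transcription and RNA handling gave 6 higher and 6 lower of 30 (20% each), with a median of -0.24 and a difference from like enrichment of -0.34. Polrmt, the mitochondrial RNA polymerase, was higher at 0.80 and Tbrg4, an RNA-binding protein of mitochondria, at 2.59, while Mettl15, a methyltransferase of the mitochondrial ribosome, was lower at -2.43, in the authors' deposited table. Germ-line energy metabolism gave 9 higher (42.9%) and 5 lower (23.8%) of 21. Its median of 0.16 turns to -0.09 as difference from like enrichment or with the most enriched peak, and to -0.08 with the median of all peaks subtracted. The glucose transporter Slc2a3 was higher at 0.92 and Pgam2, a phosphoglycerate mutase, at 1.18 in the authors' deposited table, opposite to Ldhc and Gk2.

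Lists of stress responses and protein handling also stand beside 21.7% higher and 7.58% lower of all genes. The integrated stress response gave 7 higher (31.8%) and 2 lower (9.09%) of 22, with a median of 0.46 and a difference from like enrichment of 0.18. Beside Atf4, Chac1, a target of Atf4, was higher at 2.79 with a fold enrichment of 23.7 in the authors' deposited table, and Cebpg, a partner of Atf4, was lower at -0.48. Chaperones and folding enzymes of the endoplasmic reticulum gave 12 higher (48.0%) and 2 lower (8.0%) of 25, with a median of 0.57 and a difference from like enrichment of 0.08. Hyou1, a chaperone (1.54), Manf (0.97) and Syvn1, the ligase of degradation from that organelle (2.29), were higher in the authors' deposited table, while Hspa5 was lower. Cytosolic heat shock proteins gave 9 higher (45.0%) and 1 lower (5.0%) of 20, with a median of 0.81 and a difference from like enrichment of 0.19. Hspb9, of the testis, had 1.07, Dnajb1 1.3 and Hsp90ab1 0.52 in the authors' deposited table. Of 21 genes of apoptosis 2 were higher (9.52%) and 4 lower (19.0%). Bad and Diablo, which promote cell death, had 1.7 and 1.17, and Mdm4, an inhibitor of p53, and Bcl2l14 had -1.8 and -1.63, in the authors' deposited table. Diablo had another peak, called lower at -1.58, in the authors' deposited table. The median of the apoptosis genes, 0.06, turns to -0.18 when the median of all peaks is subtracted, and is 0.21 as difference from like enrichment.

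Chromatin, splicing and cytoskeleton families were counted by gene, again beside 21.7% higher and 7.58% lower of all genes. Histone genes gave 28 higher (52.8%) and 3 lower of 53, with a median of 0.77, of which 0.12 remained as difference from like enrichment. Hist1h2al had 1.97 and Hist1h2ak 1.66 in the authors' deposited table; both peaks share bases with another, and near-identical histone copies may share reads. Splicing factors gave 23 higher (44.2%) and 3 lower of 52, with a median of 0.84 and a difference from like enrichment of 0.24. Hnrnpu had 1.35, Srsf4 1.34, Snrpd2 1.6 and Sf3b2 1.1 in the authors' deposited table. Bromodomain and remodelling genes gave 16 higher (41.0%) and 4 lower (10.3%) of 39, with a median of 1.18 and a difference from like enrichment of 0.76. That median fell to 0.23 with a gene's most enriched peak. The ATPases Smarca4 and Chd4 had 1.87 and 2.02, and Baz2a 1.71, in the authors' deposited table. Alpha and beta tubulins gave 7 higher (63.6%) and 0 lower of 11, with a median of 1.24 and a difference from like enrichment of 0.57. Tuba4a had 2.07, and the testis tubulins Tuba3a and Tuba3b, near copies of each other, had 0.78 and 0.68 in the authors' deposited table. Kinesins gave 10 higher (30.3%) and 2 lower of 33, with a median of 0.53 that turns to -0.12 with a gene's most enriched peak and a difference from like enrichment of 0.36. Translation factors gave 17 higher (41.5%) and 1 lower of 41, with a median of 0.62 and a difference from like enrichment of 0.02. Eif4g3 was higher at 1.65, and the lower one was Eef1a1 at -0.66, in the authors' deposited table.

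**Figure D4:**
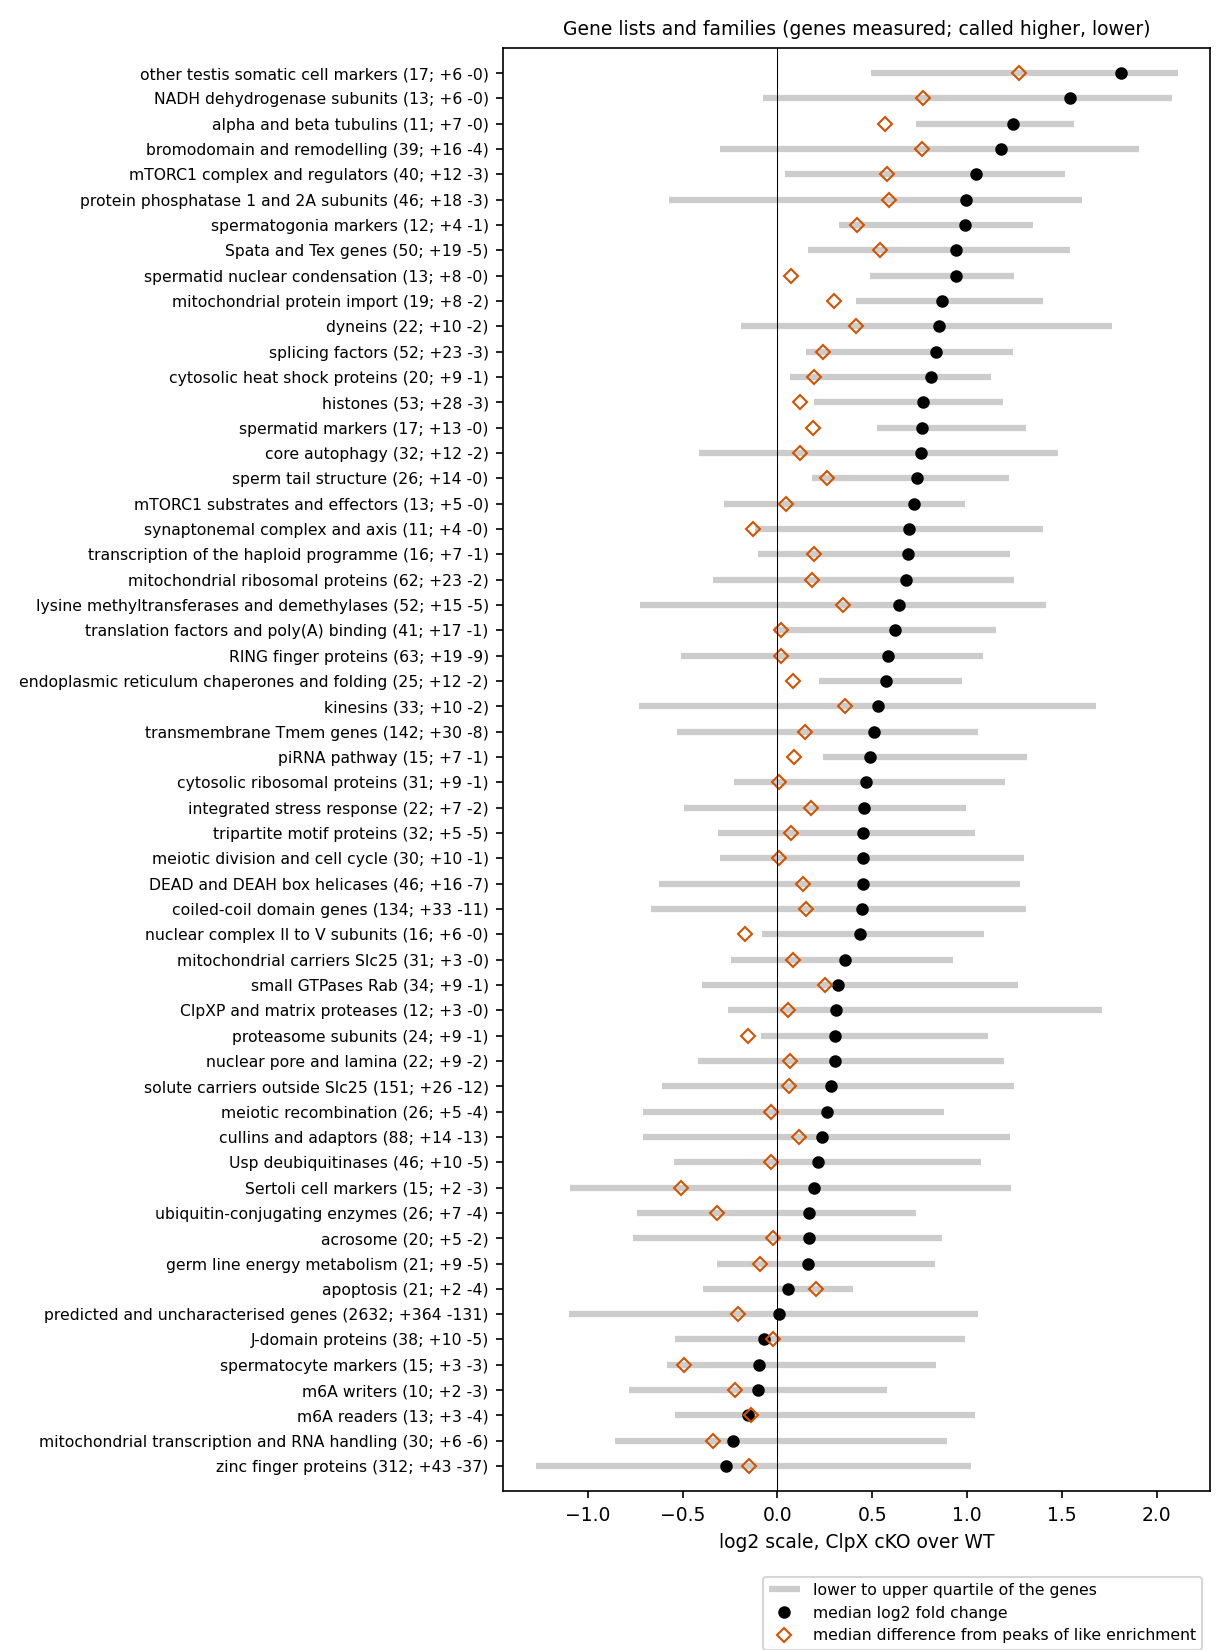
For each gene list or family with 10 or more genes measured, dots give the median log2 fold change over genes, grey bars the range between the quartiles of the genes and diamonds the median difference from peaks of like enrichment, on the log2 scale; labels give the genes measured and how many were called higher and lower. Somatic markers other than Sertoli stand highest at 1.81 and zinc finger proteins lowest at -0.27.

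Peaks of 1 gene need not move together. Of 722 genes with at least 2 called peaks, 497 had all of them higher, 59 all lower and 166 both. In 137 of the 166 the higher peak was the less enriched one, with a median fold enrichment of 4.39 against 12.45 for the lower peak. Position along the gene did not separate them in this way: the higher peak lay nearer the gene start in 90 of 163 genes placed on RefSeq spans. Over all 5974 genes with peaks of unequal enrichment, the least enriched peak had the higher log2 fold change in 3664 (61.3%), and the median difference between the least and most enriched peak was 0.42. Between the first and last peak along the gene the median difference was 0.04. These contrasts are within a gene as named in the table, and its peaks may lie on different transcripts. They also share the scale of the fold enrichment with the pattern over all peaks.

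Several genes with strong calls in both directions show this. Ddx5, an RNA helicase, had log2 fold changes of 1.79 at its gene start (fold enrichment 1.6) and -0.88 toward the end of the gene (3.05) in the authors' deposited table. Ptchd3, a Patched-domain protein of male germ cells, had 1.28 and -1.87, at fold enrichments of 2.7 and 11.4 in the authors' deposited table. The neighbouring peaks of Nfya, a subunit of the CCAAT-binding factor, at chr17:48387634-48388144 and chr17:48388384-48390910, had 3.52 and -1.68, at fold enrichments of 11.1 and 31.3 in the authors' deposited table. The uncharacterised genes 1700029M20Rik (1.18 and -0.57) and BC005537 (2.27 and -0.86) carried their lower peak within 100 bases of the gene end in the authors' deposited table.

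**Figure D5:**
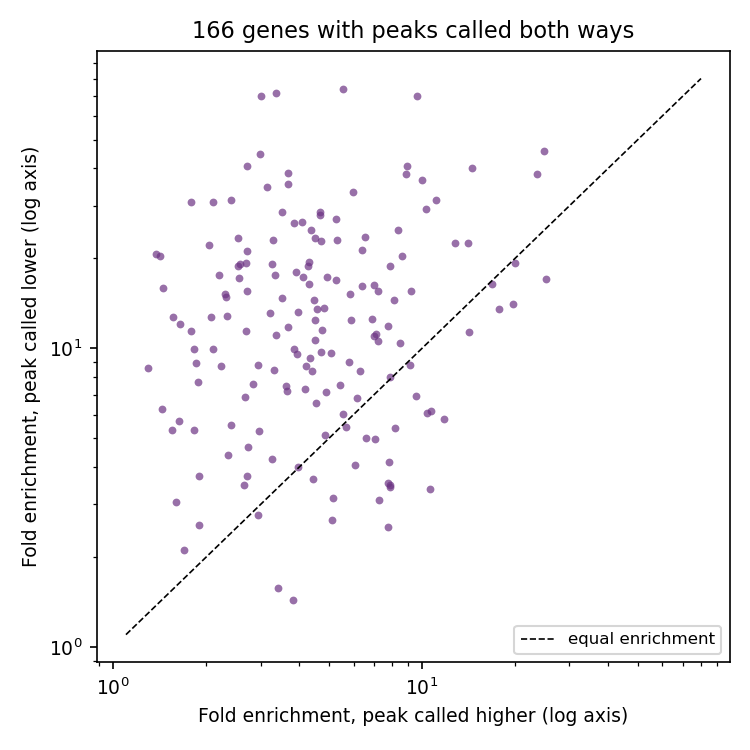
Each point is 1 of 166 genes with peaks called both ways; the axes give the fold enrichment (log axes) of its higher and of its lower peak of smallest adjusted p, and the dashed line marks equal enrichment. In 137 genes the point lies above the line, where the lower peak is the more enriched.

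Other genes carried many peaks called the same way. Plec, which codes for the cytoskeletal linker plectin, had 8 peaks, and all 8 were higher. Their log2 fold changes ran from 0.67 on the longest peak, with a fold enrichment of 15.6, to 2.68 on a short one with 1.67, in the authors' deposited table. Srrm2, a scaffold of nuclear speckles, had 5 of 7 peaks called, all higher, between 0.45 and 2.1 in the authors' deposited table. Brd2, a reader of acetylated histones, had 5 of 5 higher, between 0.52 and 1.85 in the authors' deposited table. Smurf1, a ubiquitin ligase, had 5 of 5 called, 4 higher (1.54 to 2.78) and 1 lower (-1.41), and the lower one was the most enriched at 6.86 in the authors' deposited table. Tsc22d1, a leucine zipper protein, had 5 of 8 called. Its 4 higher peaks reached from 0.80 to 3.66, and the peak at chr14:76505707-76507615 was lower at -0.29, in the authors' deposited table.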

How the data were processed

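Values are the authors' own comparison of ClpX_cKO_ip and ClpX_cKO_input with WT_ip and WT_input; the ClpP table was read only for values named as such. Reads were mapped to GRCm38 (mm10), per the submitters' processing notes; aligner, peak caller, settings, depth scaling and strand handling are not given in any source used here. The deposited columns, per the file headers, hold the p-value of each peak, scores that are log10 of p-values and adjusted p-values, a fold enrichment (linear ratio of IP over input) and a log2 fold change between genotypes. The deposited adjusted p-values lay within 0.05 (log10) of a Benjamini-Hochberg adjustment over the table in 99.32% of peaks. Depth is unknown, as no counts were used here. With 1 library per group no replicate test was possible; the authors' p-values compare libraries.

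A peak was called at the authors' adjusted p under 0.05. A gene took its peak of smallest p. Peaks were placed on RefSeq gene spans (GRCm38) by symbol (22000 peaks, 12047 genes). Block bases shared with another peak (2746 peaks, 11.6%) were counted on either strand. Start coordinates are 1-based. Work was done in Python 3.11.15 with pandas 2.3.3, numpy 2.4.6 and scipy 1.17.1. Calling anew with the median subtracted was tested on simulated data in which all peaks had the same error. That setting differs from the data, and the error taken from peaks of like support was not simulated.

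Named genes were Clpx and Clpp; the 10 peaks of smallest adjusted p per direction; the 6 largest called changes per direction at or above the median fold enrichment, both without mitochondrial, predicted or base-sharing peaks; up to 4 called members of each list or family; up to 6 genes called both ways; and up to 6 with most called peaks. Some genes these rules name are not reported here. All mitochondrial peaks, the mTORC1 members and uncalled members were named in addition. Members and lists were chosen with earlier results of these data known, and some family patterns were narrowed, to drop other genes, after values were seen. The alternatives tried are the threshold, a minimum change or fold enrichment, base sharing, median subtraction and the choice of a gene's peak; the closing section says which were added later.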

Additional observations from a re-analysis of the deposited data

How the results depend on the processing

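The share of calls that were higher was 75.06%. It stayed within its interval of counting error, which takes peaks as independent, under 3 alternatives. These were a log2 fold change of at least 1, no peaks sharing bases, and 1 vote per gene by smallest p. It was 80.24% at an adjusted p under 0.01 (659 lower peaks), 72.5% at a fold enrichment of at least 2, and 66.7% with a gene's most enriched peak. It turned below 50% when the median of all peaks was subtracted: 43.17% with 3485 lower peaks when each peak kept its own implied error, which is too small for changes near 0, since 1085 of 6132 calls were uncalled peaks with a log2 fold change under 0.1 in size. With an error at least that of peaks of like support, an alternative chosen after seeing the data, it was 48.33% (1677 higher, 1793 lower), and 71.3% without subtraction. Also chosen after seeing the data, it was 42.73% at or above the median fold enrichment and 91.63% below it.

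Of 57 medians of lists and families, 10 changed sign as difference from like enrichment (chosen after seeing the data), 11 with the most enriched peak, 2 with the mean over peaks and 8 with the median subtracted. Cullins and adaptors turned from 0.23 to -0.006 with the median subtracted, and predicted genes from 0.009 to -0.015 with the most enriched peak. None of 41 medians by chromosome, blocks, length, place or number of peaks changed sign at a fold enrichment of at least 2. No paired analysis was possible because each group holds 1 library. For the same reason leaving out a library leaves no comparison. Without counts, the depth behind any peak is unknown.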

Other observations

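Genes of ubiquitin and phosphate signalling are given beside the 21.7% higher and 7.58% lower of all genes. RING finger proteins gave 19 higher (30.2%) and 9 lower (14.3%) of 63, with a median log2 fold change of 0.58 that turns to -0.19 when a gene takes its most enriched peak; Rnf151, of the testis, had 1.79 and Rnf181 1.93 in the authors' deposited table. Cullins and their adaptors gave 14 higher (15.9%) and 13 lower (14.8%) of 88, with a median of 0.23 that turns to -0.02 with the most enriched peak. Klhl10, a spermatid adaptor needed for male fertility, was higher at 0.95, and Klhl11 and Cul3 were lower at -0.80 and -0.81, in the authors' deposited table. Klhl11 carried a further called peak in the opposite direction (1.79), with a fold enrichment of 3.53 against 28.6 for its lower peak. Proteasome subunits gave 9 higher (37.5%) and 1 lower of 24, with a median of 0.30 that turns to -0.16 as difference from like enrichment. Subunits of protein phosphatases 1 and 2A gave 18 higher (39.1%) and 3 lower of 46. Their median was 0.99, 0.30 with the most enriched peak, and their difference from like enrichment 0.59. Ppp2r5d had 1.82, Ppp1r8 1.67 and Ppp2r2a 1.4 in the authors' deposited table. Ppp2r2a had another peak, called lower at -3.03, in the authors' deposited table.

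Other families were counted beside the same shares of all genes. Dyneins gave 10 higher (45.5%) and 2 lower (9.09%) of 22, with a median of 0.85 that turns to -0.08 with a gene's most enriched peak; Dync1h1, the heavy chain of cytoplasmic dynein, had 2.68 and Dnal4 1.82 in the authors' deposited table. Spata and Tex genes gave 19 higher (38.0%) and 5 lower (10%) of 50, with a median of 0.94 that is 0.28 with the most enriched peak; Spata31 had 2.69 and Spata21 2.21 in the authors' deposited table. Zinc finger genes named Zfp gave 43 higher (13.8%) and 37 lower (11.9%) of 312, with a median of -0.27 and a median fold enrichment of 14.5. Among them Zfp956, at a fold enrichment of 2.48, was higher at 2.71, and Zfp768, at 10.5, was higher at 1.74, in the authors' deposited table. Lower ones, named after values were seen, were Zfp518a at -1.91 (fold enrichment 17.1) and Zfp180 at -2.29 (34.7) in the authors' deposited table. Predicted and uncharacterised genes, 2632 in all, were higher in 364 and lower in 131, with a median of 0.01 that turns to -0.21 as difference from like enrichment.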
